A study of Mus musculus with 4 samples.

Results

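The genes described here are the mouse genes named Rnf plus a number, which encode RING finger proteins. They were taken by symbol from the deposited gene tables, without Rnf2, Rnf8, Rnf17 and Rnf212, and number 77 of 24411 genes listed. A level of at least 1 TPM (an abundance scaled to a fixed total per library and corrected for transcript length) on average over the libraries was reached by 66 of the 77, and these were tested together with all other genes at that level, 14512 in total. The rule reads the symbol alone.

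A RING finger is a small zinc-binding fold. Most proteins that carry one act as E3 ubiquitin ligases: ubiquitin is activated by an E1 enzyme, handed to an E2 enzyme, and the E3 brings the loaded E2 to the protein that is to be marked. The mark can send a protein to the proteasome, change its place in the cell, or, on histones, serve as a signal in transcription and DNA repair. In spermatocytes, histone ubiquitination is known for its part in meiotic recombination and in silencing of unsynapsed chromosomes.

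The libraries came from testes of mice at postnatal day 18, and the source label is male germ cells. All mice carried a knock-in allele, Rec8-3xFLAG-HA-p2A-GFP, in which the Rec8 gene drives GFP together with the meiotic cohesin REC8, and GFP-positive cells were sorted to enrich meiotic prophase. The 2 controls were Zfp541+/-, 1 testis heterozygous and 1 testis homozygous for the knock-in, and the sources used here do not say which control is which. The 2 libraries labelled Zfp541 KO came from single testes homozygous for the knock-in, with a CRISPR/Cas9 deletion that begins in the first exon of Zfp541. The deletion runs through many further exons into a later intron. Knock-in dose thus differed between the controls and between the groups. Its part in the results below cannot be told apart from that of the Zfp541 genotype. Rec8 read 7.05 TPM in control 1, 27.85 TPM in control 2, 27.66 TPM in labelled KO 1 and 19.41 TPM in labelled KO 2. The strain label is C57BL/6 and CBA mixed. The comparison asks how loss of ZFP541, a zinc finger protein of pachytene spermatocytes, alters transcript levels.

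The targeted gene, Zfp541, read 112 TPM in control 1, 72.2 TPM in control 2, 136 TPM in the library labelled Zfp541 KO 1 and 151 TPM in Zfp541 KO 2. The transcript was not lower in the labelled KO libraries, and every direction below rests on the label. A value per gene cannot tell transcripts of the deleted allele from intact ones. The leptotene and zygotene marker Sycp3, a synaptonemal complex gene, was at 1108 to 2196 TPM in the 4 libraries, and the pachytene marker Ldhc, a germ cell lactate dehydrogenase gene, was at 768 to 3659 TPM. Of the other pachytene and diplotene markers, Piwil1 was at 238 to 706 TPM and Hist1h1t at 1.00 to 2.55 TPM. Of 8 pachytene and diplotene markers, 4 were lower and 1 higher in both labelled KO libraries than in both controls (median log2 fold change -0.97). Of 8 leptotene and zygotene markers 7 were higher (median 0.90). Over all genes tested 38.6% were higher and 12.1% lower. After the median-ratio scaling described below, 6 pachytene and diplotene markers were lower and 1 higher, and 5 leptotene and zygotene markers were higher and 1 lower. All genes then stood at 23.1% higher and 22.3% lower. The controls differed from each other in markers of other cells and stages. The 6 macrophage markers summed to 28.7 TPM in control 2 against 1574 to 2532 TPM in the others, and the 6 Leydig cell markers to 3603 TPM in control 1, 19.4 TPM in control 2 and 392 and 606 TPM in the labelled KO libraries. The 8 pachytene and diplotene markers summed to 5145 TPM in control 1 and to 1286 to 2366 TPM in the others. Control 2 was highest for the 7 spermatogonial markers, which summed to 978 TPM there and to 324 TPM in control 1. In the labelled KO libraries they summed to 670.5 and 483 TPM. In bulk RNA of sorted cells, fewer cells of a type and less RNA per cell cannot be told apart, and the part of these marker differences in the results below was not tested.

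No member passed an FDR of 0.05 (limma on log2(TPM + 1), 0 of 66), and 0% of all genes tested did. The lowest limma adjusted p of any member, 0.310, equalled the lowest of all genes. At an unadjusted p under 0.05, 10 members were higher and 0 lower in the labelled KO pair, against 10.7% and 3.73% of all genes tested. The 10 members make 15.2% of the 66. They were Rnf11, Rnf149, Rnf20, Rnf216, Rnf169, Rnf170, Rnf219, Rnf103, Rnf141 and Rnf214.

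Both labelled KO libraries lay above both controls for 33 members and below both for 8, and the groups overlapped for 25. The background for these counts was 38.6% of all genes above and 12.1% below, against 50% and 12.1% of the members. The median log2 fold change was 0.39 over the members and 0.28 over all genes tested, and 50 of 66 members (75.8%) were positive against 69.0% of all genes. This balance moved with the scaling. After median-ratio scaling, which shifted the median of all genes to -0.0044, 20 members were above and 18 below (background 23.1% and 22.3%), and the member median was 0.089. After quantile normalization 22 members were above and 12 below (background 27.8% and 19.4%). On the deposited scale 6 members had a log2 fold change of at least 1 and 1 member of -1 or less, where 8.98% and 5.22% of all genes did.

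**Figure D1:**
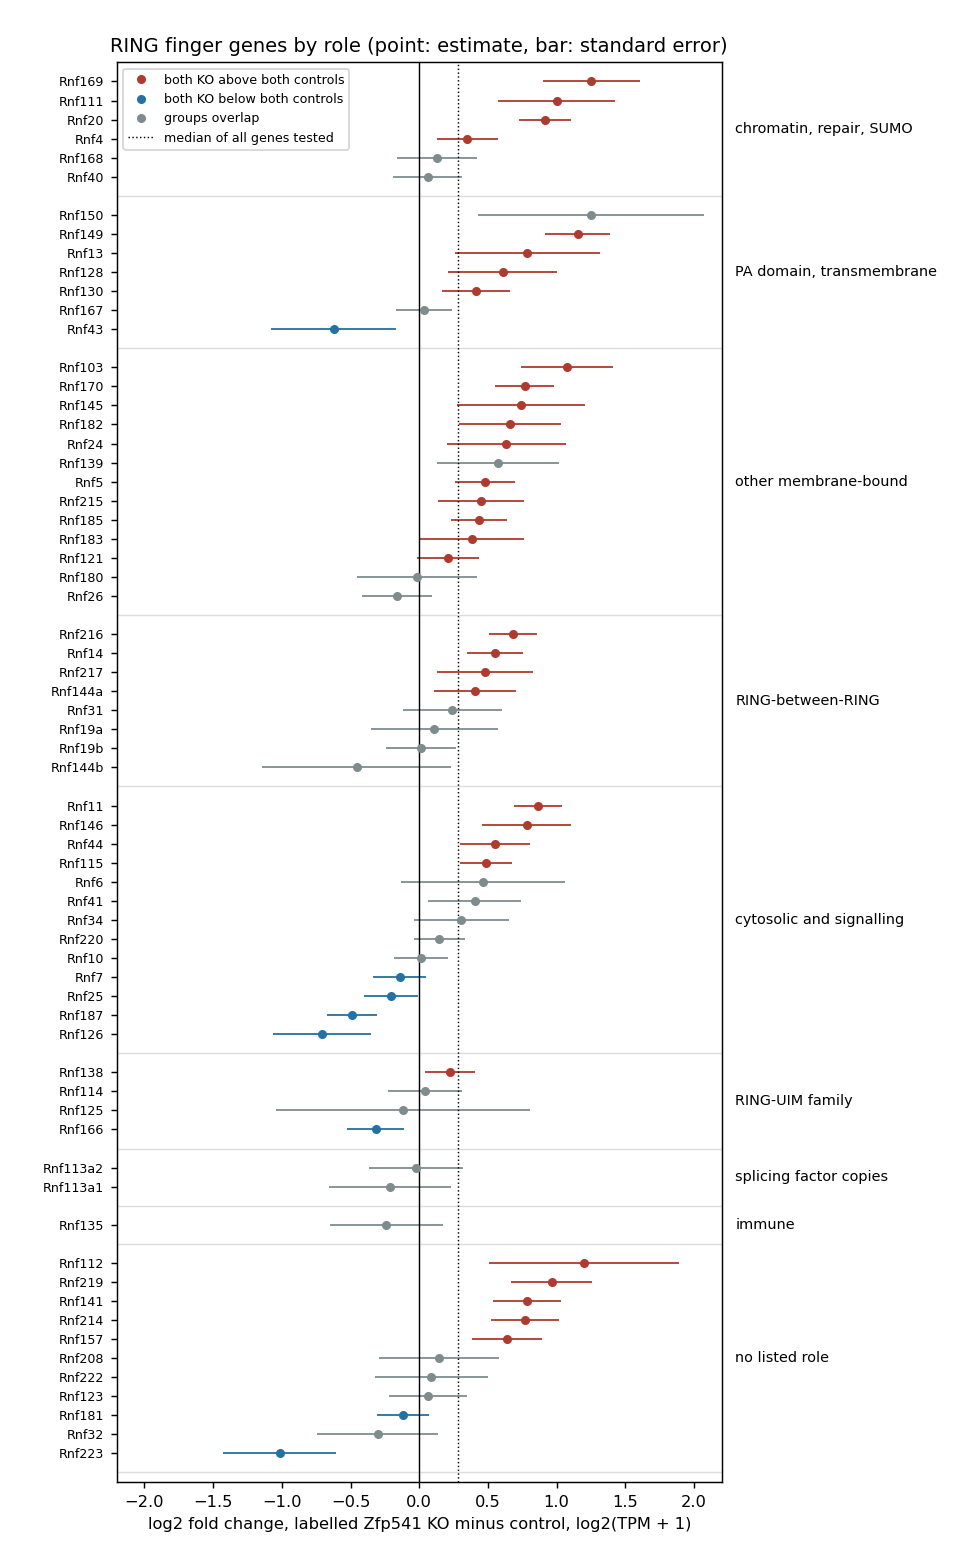
Log2 fold change of the members tested, 1 of them not drawn (x axis, log2(TPM + 1), libraries labelled Zfp541 KO minus control) with its standard error from limma, ordered by role; the dotted line is the median of all genes tested (0.28). Over all 66 members both labelled KO libraries lay above both controls in 33 (red), below in 8 (blue), and the groups overlapped in 25 (grey).

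Chromatin and DNA repair ligases. RNF20 and RNF40 form the complex that ubiquitinates histone H2B on transcribed genes. Rnf20 (chr4:49632005-49656887, GRCm38.p6) was at 74.7 and 64.3 TPM in the control pair against 137 and 127 TPM in the labelled KO pair. The groups did not overlap, and the log2 fold change was 0.92 (standard error, SE, 0.19, limma adjusted p = 0.310). Rnf40 (chr7:127588698-127603605) was at 99.0 and 68.3 TPM in the control pair against 83.5 and 88.1 TPM in the labelled KO pair. Its groups overlapped, with a log2 fold change of 0.06 (standard error 0.25). Within each library the log2 ratio of Rnf20 to Rnf40 was -0.40 and -0.085 in the controls and 0.71 and 0.52 in the labelled KO libraries, so the 2 subunit genes changed order of level between the groups. With 2 libraries a group, the exact two-sided permutation test cannot give a p under 0.333 for such a ratio. After median-ratio scaling Rnf20 was still above both controls (log2 fold change 0.59) and Rnf40 was below both (-0.26).

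RNF168 ubiquitinates histone H2A next to DNA breaks, and RNF169 binds the mark that RNF168 leaves. Rnf168 (chr16:32277461-32301442) was at 22.1 and 16.6 TPM in the control pair against 20.4 and 21.7 TPM in the labelled KO pair, which overlapped. Rnf169 (chr7:99920254-99981330) was at 14.8 and 8.92 TPM in the control pair against 27.6 and 30.0 TPM in the labelled KO pair. The log2 fold change was 1.25 (SE 0.35, limma adjusted p = 0.315), and the groups did not overlap. Its longest transcript has 7147 bases, and with the length correction the log2 fold change was 0.64. The log2 ratio of Rnf168 to Rnf169 was 0.56 and 0.82 in the controls and -0.42 and -0.45 in the labelled KO libraries. Rnf168 was thus the more abundant of the pair per length in both controls and the less abundant in both labelled KO libraries. After median-ratio scaling Rnf169 was still above both controls (log2 fold change 0.95) and Rnf168 was below both (-0.18).

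The 250 bases before the RefSeq start of these 2 related genes are shown because their levels parted (RefSeq, GRCm38.p6, 5′ to 3′ on the strand of the gene). Rnf168 is on the plus strand, chr16:32277211-32277460. Rnf169 is on the minus strand, chr7:99980459-99980708, and its window lies inside the RefSeq extent of the gene, which reaches further upstream. Capitals mark the GC box GGGCGG, searched on both strands and so also written CCGCCC, and the TATA box TATAAA.
Rnf168: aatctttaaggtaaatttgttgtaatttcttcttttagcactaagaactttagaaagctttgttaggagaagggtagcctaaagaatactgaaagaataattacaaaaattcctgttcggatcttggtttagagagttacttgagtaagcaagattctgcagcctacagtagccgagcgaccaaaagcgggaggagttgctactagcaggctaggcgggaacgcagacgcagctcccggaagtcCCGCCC
Rnf169: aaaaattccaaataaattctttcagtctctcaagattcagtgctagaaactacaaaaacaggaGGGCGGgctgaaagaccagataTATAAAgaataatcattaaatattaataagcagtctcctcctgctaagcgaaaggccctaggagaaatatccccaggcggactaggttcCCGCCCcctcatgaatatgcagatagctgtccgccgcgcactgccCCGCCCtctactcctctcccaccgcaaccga

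The Rnf168 window held 1 GC box and no TATA box, and the Rnf169 window held 3 GC boxes and 1 TATA box. Upstream windows of this kind were found for 52 of the 66 members tested. A GC box stood in 57.7% of them and in 32.9% of all 27025 windows in the table. The 27025 windows were not filtered by level as the members tested were. The part of that filter in these and the following differences was not tested. CpG dinucleotides numbered 15.5 per window in the median member and 6 in the median of all windows. A TATA box stood in 7.69% of the member windows against 13.0% of all, and the CCAAT box CCAAT in 30.8% against 34.5%. The CREB core TGACGT stood in 7.69% against 6.56%, the MYB site AACNGTT in 3.85% against 3.68%, and the E-box CACGTG in 1.92% against 6.05%.

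The other chromatin members are ligases that recognise SUMO-modified proteins. Rnf111, which also acts in TGF-beta signalling, was at 29.3 and 13.6 TPM in the control pair against 41.6 and 40.4 TPM in the labelled KO pair (log2 fold change 1.00, SE 0.42, limma adjusted p = 0.377). Its groups did not overlap, with control 2 well below control 1. Rnf4 was at 93.5 and 115 TPM in the control pair against 147 and 120 TPM in the labelled KO pair (log2 fold change 0.35), and the lower labelled KO library was close to control 2. Of the 6 genes of this list 4 were above both controls and 0 below, and their log2 fold changes had a median of 0.63. After median-ratio scaling 3 were above and 2 below. These and the following counts by list stand beside 38.6% above and 12.1% below over all genes, or 23.1% and 22.3% after median-ratio scaling.

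**Figure D2:**
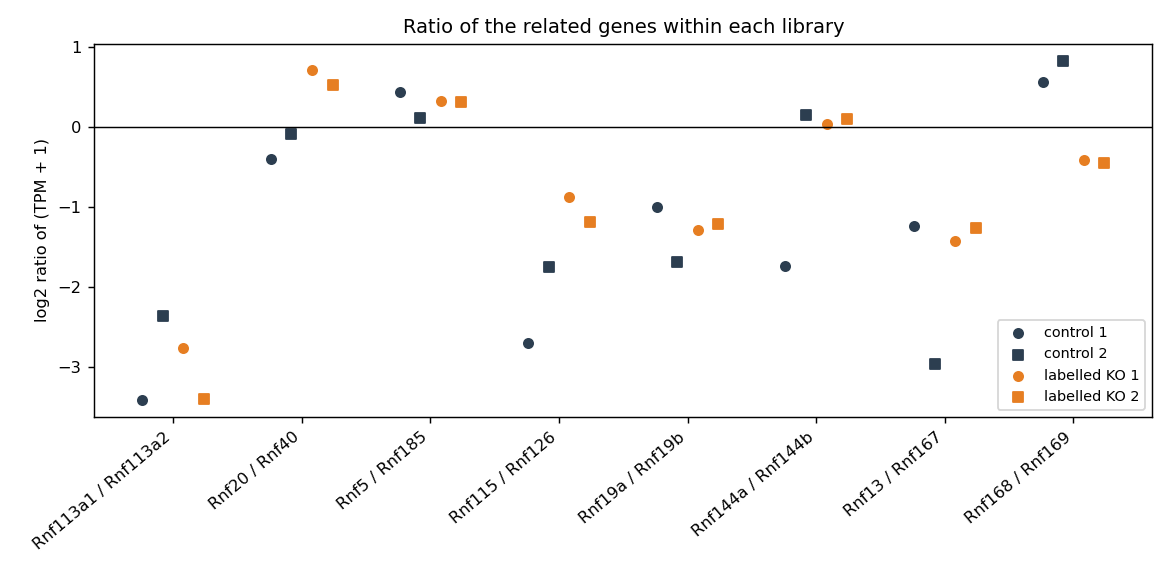
Log2 ratio of (TPM + 1) between related members within each of the 4 libraries (circles and squares, replicates 1 and 2; dark, controls; orange, labelled Zfp541 KO). The ratio of Rnf20 to Rnf40 was higher and that of Rnf168 to Rnf169 lower in both labelled KO libraries than in both controls, whereas for Rnf5 to Rnf185 and Rnf19a to Rnf19b the groups overlapped.

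Membrane-bound ligases with a protease-associated domain. These proteins sit in endosomal and plasma membranes with a luminal protease-associated domain and a cytosolic RING. Rnf149 (chr1:39551294-39577439) was at 58.7 and 42.5 TPM in the control pair against 113 and 111 TPM in the labelled KO pair. The labelled KO libraries differed from each other far less than from either control, and the log2 fold change was 1.15 (SE 0.24, limma adjusted p = 0.310). Rnf13 was at 55.8 and 19.9 TPM in the control pair against 59.2 and 57.7 TPM in the labelled KO pair (log2 fold change 0.79, standard error 0.53). Here control 1 was close to the labelled KO libraries and control 2 alone was low. Its relative Rnf167, which acts in endosomal and lysosomal traffic, was at 133 and 162 TPM in the control pair against 160 and 141 TPM in the labelled KO pair, and the groups overlapped.

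Rnf43 encodes a ligase that removes Frizzled receptors from the surface and so damps Wnt signalling. It was at 2.33 and 0.95 TPM in the control pair against 0.72 and 0.59 TPM in the labelled KO pair, a low level at which the log2 fold change of -0.62 had a SE of 0.46. Znrf3, which encodes a ligase of the same activity, was at 8.84 and 4.63 TPM in the control pair against 16.4 and 14.0 TPM in the labelled KO pair (log2 fold change 1.12, limma adjusted p = 0.353). Rnf150 was at 4.38 and 0.25 TPM in the control pair against 6.18 and 4.30 TPM in the labelled KO pair, which overlapped, and control 1 was 17.5-fold above control 2. Over the list, 4 of 7 genes tested were above both controls and 1 below, with a median of 0.61, and after median-ratio scaling 1 was above and 1 below. Rnf133 and Rnf148, 2 further genes of this family known from testis, fell under the filter.

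Ligases of the endoplasmic reticulum and other membranes. Of 13 genes tested, 10 were above both controls and 0 below, and the median log2 fold change was 0.48. After median-ratio scaling 6 were above and 2 below, and the median of this list was 0.16. That of the chromatin list was 0.31, of the list with a protease-associated domain 0.31, of the RING-between-RING list 0.017 and of the cytosolic list 0.035. Rnf103 (chr6:71493844-71510880), an endoplasmic reticulum ligase, was at 33.4 and 19.1 TPM in the control pair against 53.4 and 55.4 TPM in the labelled KO pair (log2 fold change 1.08, SE 0.34, limma adjusted p = 0.320). Rnf170, whose product targets activated IP3 receptors, was at 31.9 and 27.3 TPM in the control pair against 50.2 and 51.6 TPM in the labelled KO pair (log2 fold change 0.77, standard error 0.22). For both genes the controls and the labelled KO libraries were apart. The related ligases of endoplasmic reticulum quality control, Rnf5 and Rnf185, had log2 fold changes of 0.48 and 0.43, and the ratio between them overlapped between the groups. Rnf145 and Rnf139, sterol-responsive ligases, had wide control gaps, with control 1 2.37-fold and 2.25-fold above control 2.

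RING-between-RING ligases. In this class ubiquitin passes onto the ligase itself before it reaches the substrate. Of 8 genes tested 4 were above both controls and 0 below (3 and 1 after median-ratio scaling), and the median log2 fold change was 0.32. Rnf216 (chr5:142990893-143113041), which is needed for male fertility in mice, was at 73.3 and 72.9 TPM in the control pair against 121 and 115 TPM in the labelled KO pair. The 2 controls nearly coincided, and the log2 fold change was 0.68 (SE 0.17, limma adjusted p = 0.310). Rnf14 had a log2 fold change of 0.55 (standard error 0.20). Rnf19a, which is strongly expressed in male germ cells, was at 102 and 42.3 TPM in the control pair against 69.7 and 72.9 TPM in the labelled KO pair, between the controls. Rnf19b was at 206 and 139 TPM in the control pair against 172 and 170 TPM in the labelled KO pair, again between the controls. Rnf144b was at 38.1 TPM in control 1 and at 9.87 to 14.0 TPM in the other 3 libraries. Rnf31, the catalytic subunit of the linear ubiquitin chain complex, had a log2 fold change of 0.24 with overlapping groups.

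Cytosolic and signalling ligases. This list held members on both sides, 5 of 14 above both controls and 4 below, with a median of 0.35, and 3 above and 5 below after median-ratio scaling. Rnf11 (chr4:109452857-109476505), a small ligase that works with the A20 complex in NF-kappaB signalling, was at 67.2 and 65.3 TPM in the control pair against 125 and 118 TPM in the labelled KO pair. Each group was tight and the groups were apart, with a log2 fold change of 0.86 (SE 0.17, limma adjusted p = 0.310). Rnf146, which recognises proteins carrying poly(ADP-ribose) such as axin, was at 40.9 and 23.9 TPM in the control pair against 53.8 and 55.4 TPM in the labelled KO pair (log2 fold change 0.78). Tnks2, one of the tankyrases that make its signal, was at 40.6 and 22.0 TPM in the control pair against 68.9 and 63.8 TPM in the labelled KO pair (log2 fold change 1.12).

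Rnf187 (chr11:58932288-58938906), a coactivator of c-Jun, was at 353 and 322 TPM in the control pair against 241 and 239 TPM in the labelled KO pair. The groups did not overlap, and the log2 fold change was -0.49 (SE 0.18, limma adjusted p = 0.347). Rnf126 (chr10:79758515-79771448), a quality control ligase for mislocalised membrane proteins, was at 294 and 158 TPM in the control pair against 121 and 142 TPM in the labelled KO pair (log2 fold change -0.71, standard error 0.36). Control 2 was close to the labelled KO libraries. The log2 fold change of its relative Rnf115 was 0.48, and the log2 ratio of Rnf115 to Rnf126 was -2.70 and -1.75 in the controls and -0.88 and -1.19 in the labelled KO libraries. Rnf25 and Rnf7 were below both controls by small amounts, with log2 fold changes of -0.21 and -0.14 and SEs of 0.20 and 0.20. Rnf7 encodes the RING subunit of cullin 5 ligases, and Cul5 was at 29.6 and 22.8 TPM in the control pair against 47.8 and 49.7 TPM in the labelled KO pair (log2 fold change 0.88, limma adjusted p = 0.315).

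**Figure D3:**
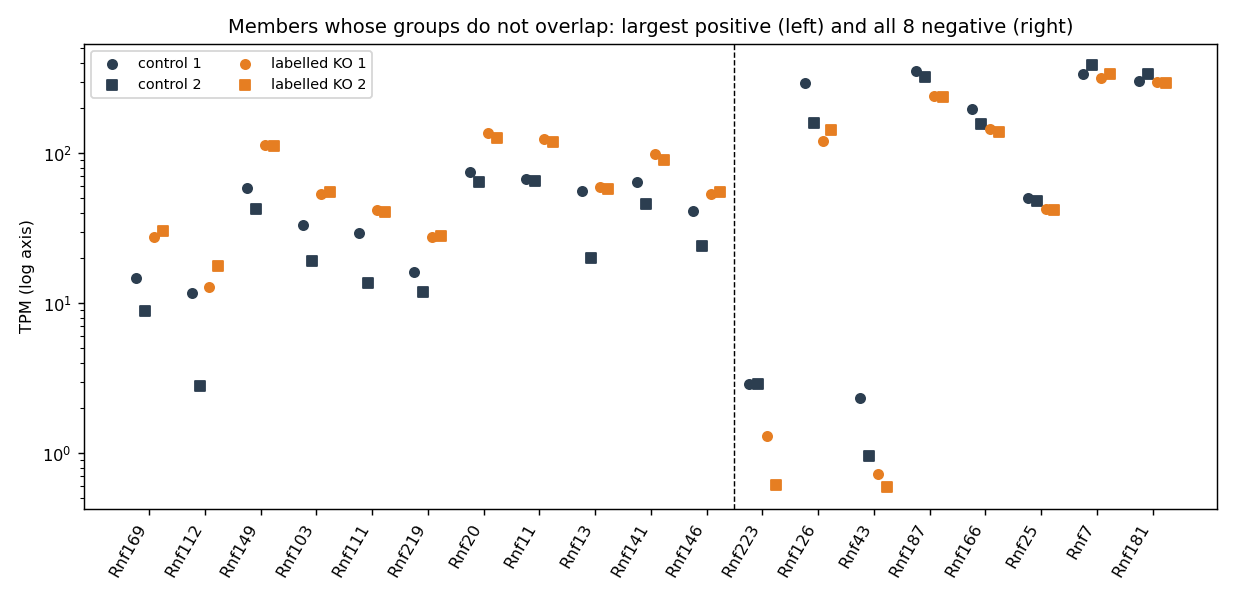
TPM (log axis) in each of the 4 libraries for the members whose groups did not overlap, 11 of the 12 with the largest positive log2 fold changes on the left and all 8 with negative ones on the right. For Rnf13 control 1 sits next to the labelled KO libraries and control 2 alone is low, whereas for Rnf11 and Rnf20 the controls sit together.

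RING-UIM ligases, splicing factor copies and other members. Rnf166 was at 197 and 156 TPM in the control pair against 144 and 137 TPM in the labelled KO pair (log2 fold change -0.32). Rnf138, a RING-UIM relative that acts in DNA end resection, had a log2 fold change of 0.23 and lay above both controls. Rnf125 was at 6.49 and 0.38 TPM in the controls, a 17.1-fold gap, and at 1.57 and 2.41 TPM in the labelled KO libraries. The splicing factor copies Rnf113a1 and Rnf113a2 overlapped between the groups, at 1.53 to 3.07 TPM and 20.1 to 34.1 TPM. As near copies they may share reads, so the split between them is uncertain. Rnf135, a ligase of the RIG-I pathway, overlapped as well.

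Of the 11 members of no listed role that were tested, 5 were above both controls and 2 below (4 and 4 after median-ratio scaling). Rnf219 (chr14:104477534-104522712, named Obi1 in RefSeq), which acts with the origin recognition complex in DNA replication, was at 16.2 and 11.8 TPM in the control pair against 27.7 and 28.0 TPM in the labelled KO pair. Its log2 fold change was 0.96 (SE 0.30, limma adjusted p = 0.320). Rnf141, first described from testis, was at 64.4 and 45.7 TPM in the control pair against 98.1 and 90.4 TPM in the labelled KO pair (log2 fold change 0.78). Rnf112 was at 11.7 and 2.81 TPM in the control pair against 12.8 and 17.6 TPM in the labelled KO pair. Its log2 fold change of 1.20 had a SE of 0.69, and control 1 was close to the labelled KO 1 library. Rnf223 was at 2.87 and 2.90 TPM in the control pair against 1.3 and 0.61 TPM in the labelled KO pair (log2 fold change -1.01, standard error 0.41).

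The most abundant members per length were Rnf10, Rnf7, Rnf181, Rnf187, Rnf32, Rnf126, Rnf19b, Rnf166, Rnf34 and Rnf167. Rnf10 led, at 383 and 335 TPM in the control pair against 355 and 367 TPM in the labelled KO pair, which overlapped. Rnf7 was at 340 and 386 TPM in the control pair against 319 and 338 TPM in the labelled KO pair. Rnf181 was at 303 and 338 TPM in the control pair against 299 and 292 TPM in the labelled KO pair. The ranges of these 3 genes overlapped, so their order does not stand beyond the spread. Rnf32, a gene of high testis expression, was at 417 TPM in control 1 and at 191 to 259 TPM in the other libraries. Rnf34 was at 158 to 183 TPM in 3 libraries and lower in control 1, at 0.548 of the level in control 2. Among the 16 most abundant members 4 were above both controls and 5 below, and the median of their log2 fold changes was 0.024, while among the other 50 members 29 were above and 3 below, with a median of 0.48. After median-ratio scaling these counts were 1 above and 8 below, and 19 above and 10 below. Of all genes at or above the level of the 16 members 33.9% were above both controls and 19.2% below, and of all other genes 39.4% and 10.8%. The medians of these 2 sets of genes were 0.11 and 0.32. After median-ratio scaling, 344 of the 2229 genes at that level were above and 749 below. Of the other 12283 genes, 3011 were then above and 2483 below. Summed over all 77 members, the level was 4997 and 4146 TPM in the control pair against 5019 and 4918 TPM in the labelled KO pair, so the labelled KO sums overlapped the controls.

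Of the 8 members listed for a role or high expression in male germ cells, 5 were tested. Rnf20, Rnf216 and Rnf141 were above both controls, and Rnf19a and Rnf113a2 overlapped. Rnf151 was at 0.65 and 0 TPM in the control pair against 0.79 and 0.16 TPM in the labelled KO pair. Rnf148 was at 0.31 TPM in the labelled KO 2 library and listed at 0 in the others, and Rnf133 was listed at 0 in all 4. These last 3 are known from spermatids. Of 7 spermatid markers, Prm1, Prm2, Tnp1 and Acrv1 were at or under 1.48 TPM in every library. Tnp2 was at 7.59 TPM in control 1 and at or under 0.75 TPM elsewhere. Tssk6 was at 2.56 to 8.83 TPM and Spaca1 at 7.34 to 26.98 TPM, both above both controls in the labelled KO libraries. The other members under the filter were Rnf122, Rnf225, Rnf165, Rnf224, Rnf39, Rnf152, Rnf207 and Rnf186, and the highest value among all 11 was 1.66 TPM.

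The controls differed more from each other than the labelled KO libraries did. The median log2 gap between the 2 controls was 0.41 over the members tested, and that between the 2 labelled KO libraries was 0.10. Over all genes tested these median gaps were 0.65 and 0.16. In 36 of 66 members the control gap exceeded the fold change between the groups (54.5%), as it did in 61.6% of all genes. Control 2 was the lowest of the 4 libraries for 38 members (57.6%), where it was the lowest for 53.4% of all genes. Left out in turn, each control gave a fit in which the spread came from the labelled KO pair alone. Without control 1, 28 members passed an FDR of 0.05 higher (42.4%) and 1 lower (1.52%), where 38.7% and 9.47% of all genes did. Without control 2, 14 passed higher (21.2%) and 7 lower (10.6%), where 15.5% and 12.9% of all genes did. In both fits and in the same direction, 12 members were higher (18.2%, where 9.92% of all genes were) and 1 was lower (1.52%, where 3.18% of all genes were). The 12 were Rnf103, Rnf11, Rnf115, Rnf141, Rnf149, Rnf157, Rnf169, Rnf170, Rnf20, Rnf214, Rnf216 and Rnf219, and the lower 1 was Rnf187. Rnf19a and Rnf125 passed in both fits but in opposite directions (3.03%), as 3.65% of all genes did. These 2 fits share the labelled KO libraries, and a lone control is assumed to vary like them.

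Longer transcripts had higher fold changes, in the members as in all genes. Of the 33 members with a longest annotated transcript over 3470 bases, the median of the members, 20 were above both controls and 1 below, and the median log2 fold change was 0.57. Of the other 33, 13 were above and 7 below, with a median of 0.14. Over all genes tested the same division at 3470 bases gave 52.1% above and 4.72% below for the longer genes (median 0.48), and 27.8% above and 17.9% below for the others (median 0.12). The controls also differed from each other by length. Summed over all genes tested that are longer than 3470 bases, the level was 277700 TPM in control 1 and 205400 TPM in control 2. In the labelled KO libraries it was 304100 and 307600 TPM, so control 1 was closer to these than to control 2. Rnf7, Rnf25, Rnf126, Rnf166 and Rnf187, all below both controls, were among the shorter members. The part of transcript length in single fold changes was not tested beyond the length correction given with the other processing choices.

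**Figure D4:**
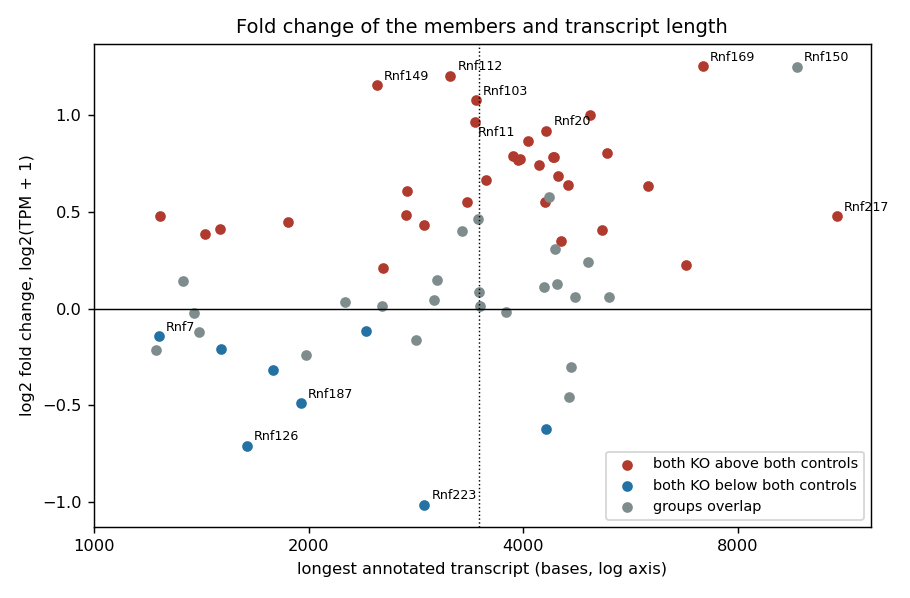
Log2 fold change of each member tested (y axis, log2(TPM + 1)) against its longest annotated transcript (x axis, bases, log axis); the dotted line is the median length of 3470 bases. Of the members to the right of the line 20 were above both controls and 1 below, and of those to its left and on it 13 were above and 7 below.

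Upstream of the ligases, 15 of 31 E2 genes were above both controls and 2 below, and the median log2 fold change was 0.25. All genes stood at 38.6% above and 12.1% below. After median-ratio scaling 3 E2 genes were above and 6 below, and their median was -0.072. Ube2g1, an E2 of endoplasmic reticulum degradation, was at 42.6 and 44.7 TPM in the control pair against 83.8 and 84.9 TPM in the labelled KO pair (log2 fold change 0.94, SE 0.18, limma adjusted p = 0.310). Ube2v2, the inactive E2 partner for chains made in DNA damage tolerance, was at 19.0 and 18.6 TPM in the control pair against 39.9 and 37.9 TPM in the labelled KO pair. Ube2d2b, a copy of Ube2d2a known from testis, was at 197 and 38.9 TPM in the control pair against 12.9 and 22.5 TPM in the labelled KO pair. Its log2 fold change of -2.30 (SE 0.85, limma adjusted p = 0.347) rested on controls that were 5.07-fold apart. As near copies the 2 genes may share reads.

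The E1 genes were on opposite sides. Uba6 was at 36.4 and 34.2 TPM in the control pair against 86.1 and 75.0 TPM in the labelled KO pair (log2 fold change 1.17, SE 0.20, limma adjusted p = 0.310). Uba1, the main E1, was at 108 and 118 TPM in the control pair against 95.6 and 80.2 TPM in the labelled KO pair (log2 fold change -0.37, standard error 0.20). Of the 4 ubiquitin genes, Ubb was below both controls, at 5388 and 7828 TPM in the control pair against 4540 and 4277 TPM in the labelled KO pair, and the other 3 overlapped. Among 15 partner genes tested, 12 were above both controls and 0 below, with a median of 0.51, and after median-ratio scaling 7 were above and 1 below, with a median of 0.19. They include Rnf2, Rnf8 and Rnf17, which were left out of the members by name and were each above both controls on the deposited scale. After median-ratio scaling Rnf2 and Rnf17 were still above both controls, and Rnf8 overlapped them (log2 fold change 0.069). Wac, which recruits the RNF20 and RNF40 complex to transcribed genes, is also among the partner genes. Wac was at 65.0 and 41.0 TPM in the control pair against 74.8 and 73.5 TPM in the labelled KO pair.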

How the data were processed

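The authors trimmed single-end reads with Trim Galore 0.5.0 (cutadapt 1.16), aligned them to mm10 with STAR 2.6.0a and estimated expression with RSEM 1.3.1, per the labels and methods. They deposited TPM per gene and library, which sum to 1000000 in each and keep no depth, so counting error is unknown. From these, genes averaging 1 TPM or more were compared by genotype on log2(TPM + 1) with limma 3.58.1 in R 4.3.3 (mean-variance trend, two-sided, Benjamini-Hochberg over all 14512 genes, FDR 0.05). Fold changes on this scale understate low genes. The p-values rest on 1 spread per gene, pooled over both groups of 2 testes and drawn towards the trend over all genes. The median log2 gap over all genes tested was 0.65 between the controls and 0.16 between the labelled KO libraries. The pooled spread thus came mostly from the controls, which also differed in knock-in dose. The procedure was tested on simulated data. Groups came from the labels. Members, role lists and tests were chosen with earlier results of these data known. Named were the 12 largest positive and 12 largest negative members with groups that did not overlap (8 were negative), the 10 most abundant, and the germ cell list, and any past the FDR. The values of 1 of these are not reported here. Other members and partners are examples from their lists chosen after their values were seen. Coordinates and upstream windows are from RefSeq GRCm38.p6 (76 of 77 members found by symbol) and lengths from GENCODE (95.9% of genes tested). In each table, dates stand as names in 27 rows, which were given no gene. Alternatives covered pseudocount, filter, scaling, variance trend, block, length, FDR and leaving out each library. Protein sequences were not used here.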

Additional observations from a re-analysis of the deposited data

How the results depend on the processing

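No member passed an FDR of 0.05 under any pseudocount, filter, scaling, variance trend, block or length setting, or at FDR 0.1, by limma. Leaving out each library in turn gave 0 to 29 members past the FDR: 29 without control 1 (28 higher, 1 lower), 21 without control 2 (14 higher, 7 lower) and 0 without either labelled KO library. Of all genes 38.7% passed higher and 9.47% lower without control 1, and 15.5% and 12.9% without control 2. The member median of 0.39 became 0.089 with median-ratio scaling, 0.17 with quantile normalization and 0.064 with the length correction, and was 0.26 to 0.45 with 1 library left out. Members above and below both controls numbered 20 and 18 with median-ratio scaling, and 20 and 16 with the length correction (all genes 22.4% and 21.4%). With 1 library left out they were 34 to 47 above and 8 to 22 below, while the shares of all genes were 42.9% to 65.8% and 15.6% to 36%. Of 28 named members fitted, 7 turned direction under at least 1 alternative. With median-ratio scaling the log2 fold changes of these were Rnf10 -0.31, Rnf19b -0.31, Rnf34 -0.018, Rnf167 -0.29 and Rnf19a -0.21. With quantile normalization Rnf19b was at -0.030, Rnf167 at -0.010 and Rnf19a at -0.13. With the length correction Rnf10 was at -0.29, Rnf19b at -0.16, Rnf34 at -0.093, Rnf167 at -0.10, Rnf19a at -0.27 and Rnf113a2 at 0.0081. With 1 library left out, Rnf10 ranged from -0.085 to 0.11, Rnf32 from -0.86 to 0.26, Rnf19b from -0.27 to 0.30, Rnf34 from -0.12 to 0.74, Rnf167 from -0.11 to 0.18, Rnf19a from -0.52 to 0.74 and Rnf113a2 from -0.39 to 0.35. The cause was not tested. The labels do not say whether libraries with the same replicate number were paired between the groups. The correlation of same-numbered deviations was -0.16 over all genes and -0.48 over the members tested. With 2 libraries a group it cannot settle whether they were paired. With the replicate numbers as a block 0 members passed, with a smallest adjusted p of 0.629 from limma. A crossed block, added after the data were seen, called 7 genes higher and 80 lower over all genes and 0 members. The deposited TPM keep no depth, so what depth limits cannot be given.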
